A study of Mus musculus and Homo sapiens with 9 samples.

Results

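The genes described here were the F-box protein genes and the ubiquitin-specific protease genes of mouse and human, taken by their symbols. A gene was a member when it was autosomal and protein-coding in GENCODE M21 (mouse) or 44 (human) and its symbol, ignoring case, was USP, FBXO, FBXL or FBXW followed by a number and at most 1 further letter. This gave 229 genes of 39918, of which 121 of 20807 were mouse and 108 of 19111 human. In mouse, 44 were Usp, 36 Fbxo, 18 Fbxl and 23 Fbxw genes, and in human 45 were USP, 36 FBXO, 17 FBXL and 10 FBXW genes. The rule left out 6 genes on X or Y in each species and 1 mouse and 3 human autosomal pseudogenes. The study itself displayed USP37 and FBXO4 as examples from these libraries, so the choice of these families is not independent of the data.

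Ubiquitin is a small protein that marks other proteins, often for destruction by the proteasome. F-box proteins are the exchangeable subunits of SCF ubiquitin ligases, in which the F-box docks on SKP1 and the rest of the protein picks the substrate through WD40 repeats (FBXW), leucine-rich repeats (FBXL) or other domains (FBXO). Ubiquitin-specific proteases (USPs) do the opposite and cut ubiquitin off, and both families act on many proteins of the cell cycle and of DNA repair. An R-loop is a stretch where RNA pairs with 1 DNA strand and displaces the other, and such structures are frequent at GC-rich promoters.

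The assay was CUT&Tag: a transposase tethered to an antibody cuts and tags the DNA close to the antibody's target, and the tagged fragments are read. The S9.6 antibody recognises RNA-DNA hybrids. There were 9 libraries with 1 library in each group and no replicates, so nothing below was tested and each difference compares libraries, not conditions. The mouse libraries were from embryonic fibroblasts (MEFs) prepared from E13.5 embryos and immortalised with SV40 by lentivirus and puromycin selection: Mcm8 wildtype (WT) with S9.6, Mcm8 knockout (KO) with S9.6, wildtype with no primary antibody, and control shRNA (shControl) or Ddx5 knockdown (shDdx5) with S9.6, both shRNAs brought in by adenovirus. MCM8 is a helicase of the MCM family and DDX5 an RNA helicase. The human libraries were from HEK293, an embryonic kidney cell line, all labelled wildtype: mouse IgG, anti-FLAG after transfection of a FLAG-MCM8 plasmid, S9.6, and S9.6 in cells given a plasmid that the label calls RNH1. The study uses this name for RNase H1, which digests RNA that is paired with DNA. Peak lists hold no expression, so neither the cell types nor the knockout or knockdown could be checked in them, and with bulk cells a weaker signal in each cell and a signal in fewer cells cannot be told apart.

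The lists held 4314 to 12259 peaks in MEFs and 12497 to 17178 in HEK293 cells. The number of fragments stacked at each summit (the pileup) was solved from the deposited fold and p for every peak. The lowest pileup that was called was 6 or 7 in the S9.6 MEF lists, 3 with no antibody and 10 to 14 in HEK293 cells, and the lowest local background, which follows depth, was 1.31 to 1.67, 0.191 and 1.81 to 3.34 fragments. A gene without a peak is therefore one whose signal was not called at this depth. The −log10 p of MEF peaks started at 3 and that of HEK293 peaks at 5, so strengths were not compared between the species.

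A promoter peak was a peak whose midpoint lay within 1 kb of a transcription start site (TSS) of the gene. The sequences that follow are 61 bases centred on the summit of such peaks, from the mm10 and hg38 references along the gene's own strand. They show USP37 and FBXO4, the genes the study displayed, and FBXO11, the F-box gene found in all 4 S9.6 MEF lists, each with its mouse counterpart. Capitals mark matches, on both strands, to any of 9 motifs. These were the GC box GGGCGG, the CCAAT box, the ETS site CCGGAAG, the TATA box TATAAA, the E-box CACGTG, the BANP element TCTCGCGA, the NRF1 element GCGCATGC, the cyclic AMP response element TGACGTCA, and a run of G, GGGG, which can overlap the GC box.
USP37 in S9.6, hg38 chr2:218568434-218568494, minus strand: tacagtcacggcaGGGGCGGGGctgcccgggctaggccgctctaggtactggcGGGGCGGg
Usp37 in shControl and shDdx5, mm10 chr1:74505952-74506012, minus strand: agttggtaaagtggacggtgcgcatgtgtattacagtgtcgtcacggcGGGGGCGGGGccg
Usp37 in WT and KO, mm10 chr1:74505842-74505902, minus strand: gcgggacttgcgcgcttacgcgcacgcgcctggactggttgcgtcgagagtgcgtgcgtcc
FBXO4 in FLAG-MCM8, hg38 chr5:41925101-41925161, plus strand: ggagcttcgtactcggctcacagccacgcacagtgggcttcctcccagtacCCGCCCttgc
FBXO4 in S9.6, hg38 chr5:41925142-41925202, plus strand: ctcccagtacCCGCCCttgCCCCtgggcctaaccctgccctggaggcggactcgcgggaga
Fbxo4 in shDdx5, mm10 chr15:3979363-3979423, minus strand: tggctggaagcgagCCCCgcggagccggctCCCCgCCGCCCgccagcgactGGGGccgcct
FBXO11 in labelled RNH1, hg38 chr2:47906610-47906670, minus strand: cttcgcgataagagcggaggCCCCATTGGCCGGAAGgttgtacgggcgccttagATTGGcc
Fbxo11 in WT, mm10 chr17:88066152-88066212, minus strand: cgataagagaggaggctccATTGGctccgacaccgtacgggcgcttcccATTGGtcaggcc

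The summit of Usp37 fell on the same base in WT and KO, 66 bp upstream of a TSS, and on another shared base, 176 bp upstream, in shControl and shDdx5. The human S9.6 window of USP37 and the latter mouse window both hold a GC box inside a longer run of 10 shared bases, ggggcggggc. The printed windows of FBXO11 (labelled RNH1) and Fbxo11 (WT) share 10 bases, gtacgggcgc, and both hold the CCAAT box on the opposite strand. The S9.6 window of FBXO11 lies at another place, holds no CCAAT box and shares 5 bases with that of Fbxo11 in WT. Among the other Fbxo11 windows, the shControl one holds the CCAAT box and those of KO and shDdx5 do not. The summit of Fbxo11 lay 891 bp upstream of its nearest TSS in WT and 980 bp in KO, near the limit of the 1 kb window. Over 202 pairs of windows from 40 genes with a peak in both species, the median longest shared run was 6 bases. Promoters of all genes were read from 250 bases before to 50 after the 5' end of the gene record. Among them the GC box was present in 43.7% in mouse and 52.6% in human, and CCAAT in 38.6% and 35.6%. CCGGAAG was present in 11% and 11.9%, and GGGG in 88.7% and 92.4%.

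In MEFs, members had promoter peaks more often than genes at large in every S9.6 list, and hardly at all without antibody. The WT list held a promoter peak at 23 of the 121 mouse members, 19% (95% Wilson interval 13 to 26.9%, which covers counting error only), beside 11.8% of all genes. The KO list held 32 (26.4%, 19.4 to 34.9%) beside 16.7%, the shControl list 36 (29.8%, 22.3 to 38.4%) beside 15.3%, and the shDdx5 list 50 (41.3%, 32.9 to 50.2%) beside 24%. With no primary antibody only Usp5 had one (0.826%, beside 1.28% of all genes). Members had a median of 5 annotated TSSs against 3 for all mouse genes, and 7 against 5 in human, which gives a member more promoter windows. With 1 TSS for each gene the members' counts were 20 (WT), 28 (KO), 29 (shControl) and 44 (shDdx5), beside 9.65%, 14.1%, 12.3% and 20.6% of all genes. Counting peaks with a q of 0.05 or lower left 14 members in WT (6.62% of all genes), 18 in KO (10.3%), 23 in shControl (8.02%) and 38 in shDdx5 (19.3%).

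In HEK293 cells, S9.6 marked 52 of 108 members (48.1%, 39 to 57.5%) beside 30.7% of all genes, and the library labelled RNH1 marked 41 (38%, 29.4 to 47.4%) beside 25.3%. The controls were close to their background: IgG marked 8 members (7.41%, 3.8 to 13.9%) beside 5.64%. FLAG-MCM8 marked 11 (10.2%, 5.78 to 17.3%) beside 12.3%, a share under that of all genes but with an interval that spans it. With 1 TSS for each gene, S9.6 marked 43 members beside 23.8% of all genes, and the list labelled RNH1 33 beside 19%. Many of these promoters hold the TSS of another gene. Without such genes, S9.6 marked 15 of 47 members (31.9%, 20.4 to 46.2%) beside 21.8% of all genes so chosen, and the list labelled RNH1 13 (27.7%, 16.9 to 41.8%) beside 17.4%, each interval including its background. FLAG-MCM8 then marked 6 of the 47 (12.8%, 5.98 to 25.2%) beside 8.72%. That share was above the one of all genes so chosen, with an interval that again spans it.

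**Figure D1:**
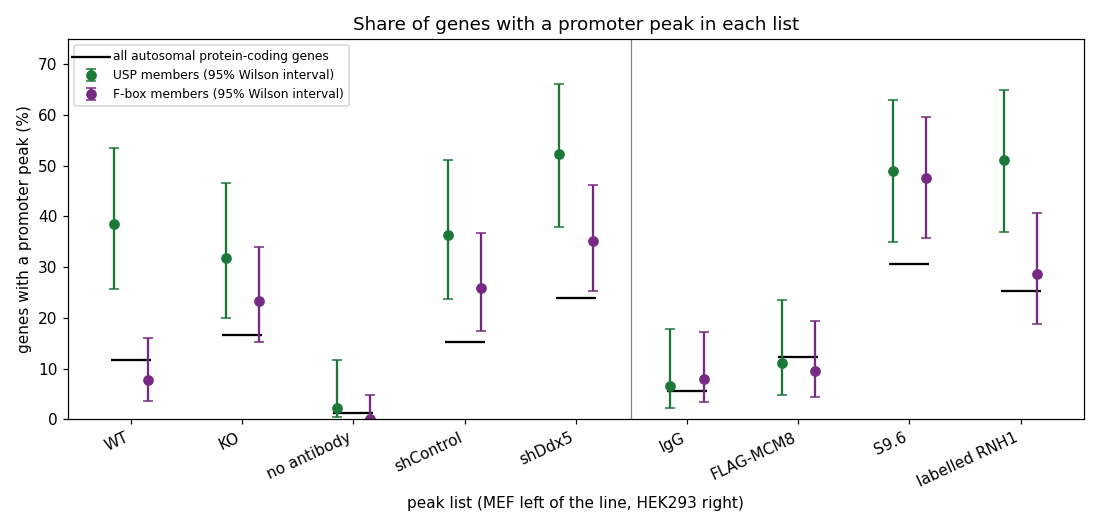
Share of USP and F-box members with a promoter peak in each of the 9 lists (points, with 95% Wilson intervals) and of all autosomal protein-coding genes of the same species (black bars). In WT the USP share was 38.6% and the F-box share 7.79%, and in HEK293 cells the F-box share was 47.6% in S9.6 and 28.6% with the RNH1 plasmid.

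Counted over all peaks, the ligase and the protease genes did not follow the same course across the lists. In WT, 17 of 44 Usp genes had a promoter peak (38.6%, 25.7 to 53.4%) but only 6 of 77 F-box genes (7.79%, 3.62 to 16%). The F-box share was under the 11.8% of all genes, with an interval that spans it. In KO the numbers were 14 and 18, in shControl 16 and 20, and in shDdx5 23 and 27. Usp genes had a median of 7 annotated TSSs and F-box genes 4, and with 1 TSS per gene the WT numbers were 15 and 5. With a q of 0.05 or lower both families rose from WT through KO and shControl to shDdx5. Usp genes then numbered 8, 9, 12 and 17, and F-box genes 6, 9, 11 and 21. With a fold of at least 4 they numbered 6, 8, 11 and 12, and 4, 7, 9 and 14. Over all peaks, F-box genes were 12 more in KO than in WT and 7 more in shDdx5 than in shControl. The share over all genes went from 11.8% to 16.7% and from 15.3% to 24%. The direction of both F-box differences was the same under each of the 10 alternative settings, but their size was not. The first fell to 3 with a q of 0.05 or lower and with a fold of at least 4, to 4 with the same number of strongest peaks from each list and to 6 without promoters shared with another gene. The second fell to 2 with a window of 500 bp, with the same number of strongest peaks and without shared promoters. WT and shControl, in which neither Mcm8 nor Ddx5 was perturbed, held 6 and 20 F-box genes and so lay further apart than WT and KO. Usp genes were 3 fewer in KO than in WT and 7 more in shDdx5 than in shControl, and the first of these turned to 1 more with a q of 0.05 or lower (8 in WT, 9 in KO), 2 more with a fold of at least 4 and 1 more without promoters shared with another gene. The Fbxo genes carried most of the F-box difference, with 3 of 36 (WT), 11 (KO), 13 (shControl) and 18 (shDdx5). The Fbxl genes numbered 2, 4, 4 and 6 of 18. Of 23 Fbxw genes, Fbxw7 alone had a promoter peak in WT, and 3 had one in each of the other S9.6 lists. Fbxw17 was the only member among the mouse genes Fbxw13 to Fbxw28 with a promoter peak.

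**Figure D2:**
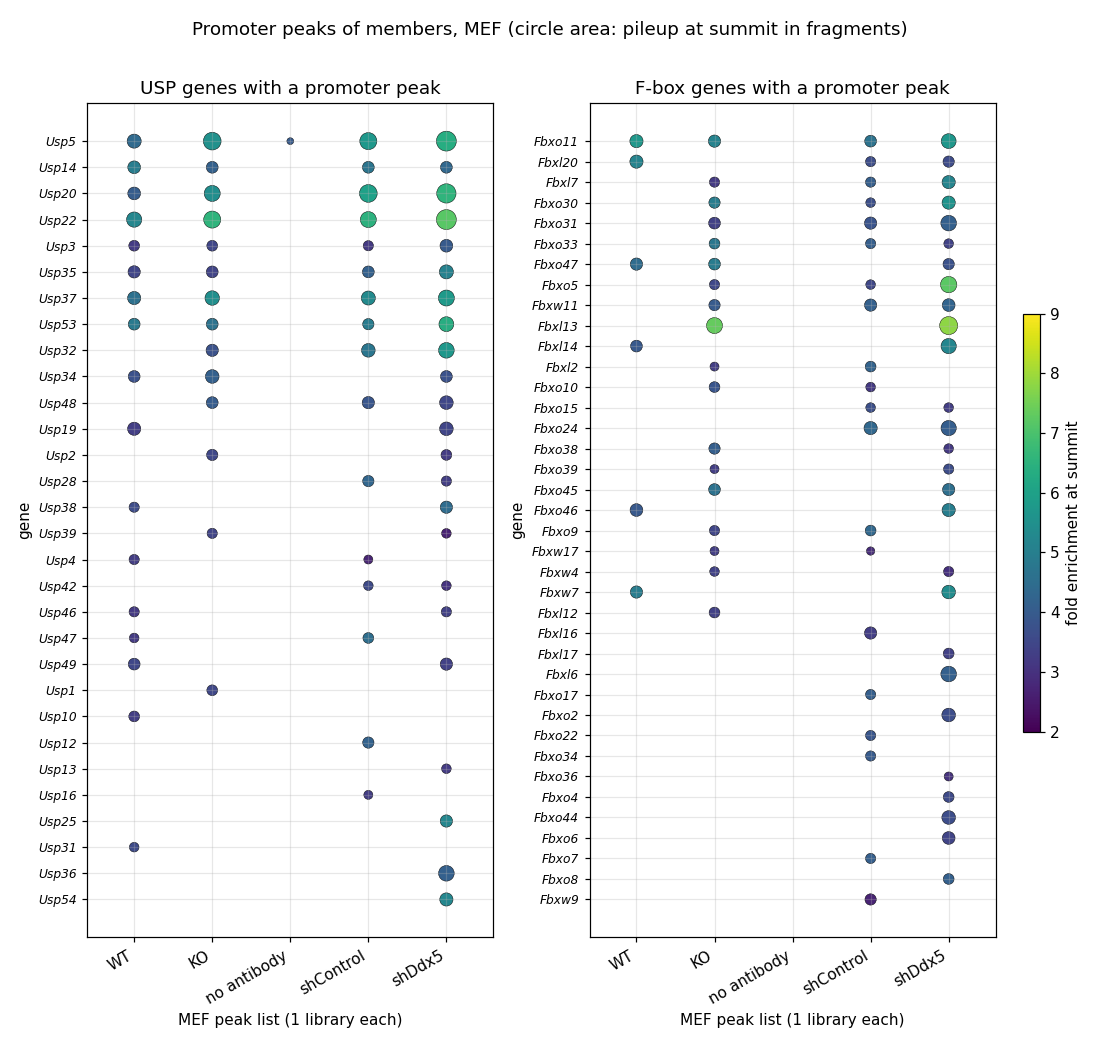
Promoter peaks of mouse members, with genes in rows and the 5 MEF lists in columns. Circle area is the pileup at the summit in fragments and colour the fold enrichment over the local background (strongest promoter peak of the gene in that list). Usp5 has a circle in all 5 lists and the F-box genes have 6 circles in WT and 27 in shDdx5.

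Of the 121 mouse members, 68 had a promoter peak in at least 1 of the 4 S9.6 MEF lists (56.2%, beside 35.2% of all genes) and 9 in all 4 (7.44%, beside 4.41%). These were Fbxo11 and 8 Usp genes: Usp3, Usp5, Usp14, Usp20, Usp22, Usp35, Usp37 and Usp53. Their 36 peaks had a median pileup of 15 fragments and a median fold of 5, and the 24 peaks of members found in 1 list only had a median of 10 fragments and a median fold of 3.6. Members in 2 lists had medians of 10 fragments and a fold of 3.49, and those in 3 lists 12 and 4.01. A peak is called by its pileup over the background, so stronger peaks in members called in every list follow in part from the calling.

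Usp22, the ubiquitin protease of the SAGA transcription coactivator, which acts on histone H2B, was among the 3 strongest members in each S9.6 MEF list. Its pileup was 20 fragments in WT (fold 5.24) and 25 in KO (6.56), and it was 22 in shControl (6.46) and 34 in shDdx5 (7.19), over local backgrounds of 3.01, 2.96, 2.56 and 3.87. The exact Poisson intervals of these pileups, 12.2 to 30.9 in WT and 16.2 to 36.9 in KO, overlapped, as did 13.8 to 33.3 in shControl and 23.5 to 47.5 in shDdx5. Usp20, which is known to bind the VHL tumour suppressor, had 14 (WT), 22 (KO), 27 (shControl) and 32 fragments (shDdx5), with folds of 4.04, 5.43, 5.99 and 6.54, and was the member with the highest −log10 q in shControl (9.82). Usp5, which takes apart free ubiquitin chains, had 17, 27, 25 and 34 fragments in the same order. It was also the only member with a promoter peak where no antibody was used, with 4 fragments over a background of 0.253 (fold 3.99, −log10 q 1.11). Its promoter lies within 1 kb of a TSS of Cdca3, so the peak cannot be assigned to either gene.

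Usp37, which removes ubiquitin from cyclin A, had 15 fragments (fold 4.58) in WT, 18 (5.46) in KO, 17 (5.31) in shControl, and, again the most, 22 (5.78) after Ddx5 knockdown. Its peak lies within 1 kb of a TSS of Cnot9, a subunit of the CCR4-NOT deadenylase. Fbxo11, the substrate receptor of an SCF ligase for BCL6, had 15, 13, 12 and 19 fragments, and in WT its −log10 q of 5 was exceeded among members by that of Usp22 (5.81) only. Fbxl20 followed in WT with 15 fragments and a −log10 q of 4.14. Usp14, which sits on the proteasome, had 12 to 14 fragments in the 4 lists, and Usp53 had 11 to 19. Usp3, a protease of histone H2A, had 9 to 14 and Usp35, which shares its promoter with Kctd21, 12 to 17. For 8 of the 9 genes the highest pileup was in shDdx5, the exception being Usp14, which was highest in WT. The lowest local background was also highest in shDdx5 (1.67 fragments, against 1.31 to 1.53 in the other S9.6 MEF lists), and its part in these values was not tested.

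**Figure D3:**
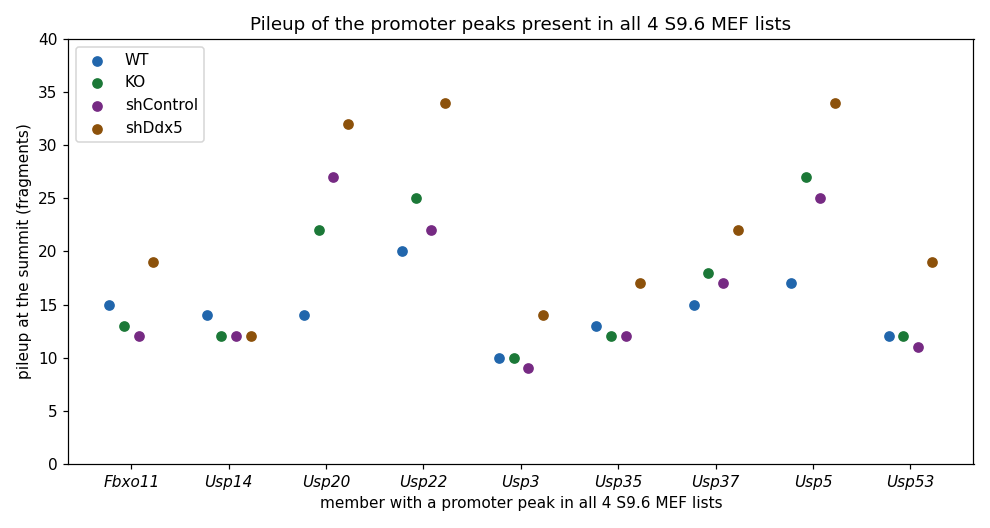
Pileup at the summit, in fragments, of the 9 members with a promoter peak in all 4 S9.6 MEF lists, 1 point for each list. Usp5, Usp20 and Usp22 reach 32 to 34 fragments in shDdx5 and the other genes stay at or below 22 in every list.

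In the comparison of Mcm8 KO with WT, which asks where R-loops differ without MCM8, 21 members had a promoter peak in KO and not WT (17.4%, beside 9.75% of all genes). There were 12 with one in WT and not KO (9.92%, beside 4.86%) and 11 with one in both (9.09%, beside 6.98%). Of the 21 in KO and not WT, 16 were F-box genes and 5 Usp genes, and of the 12 in WT and not KO 4 were F-box genes and 8 Usp genes. The KO list holds 9605 peaks and the WT list 6481, and with the same number of strongest peaks from each there were 11 members in KO and not WT and 9 in WT and not KO. In all 11 genes of both lists the KO and WT peaks shared bases, with summits a median of 131 bp apart. Fbxl13 had the highest −log10 q of any member in KO (10.4), with 22 fragments (13.8 to 33.3), and a fold of 7.35, at a promoter it shares with Armc10. The study displayed Armc10 as its example of a peak found in KO only, so this site was already picked from these data. Other F-box genes in KO and not WT had fewer fragments: Fbxo33 had 10, Fbxo30 11 and Fbxo45 12, and Fbxo5, whose product EMI1 inhibits the APC/C ligase, had 9. Usp1, which acts on FANCD2 and PCNA, had 10 in KO. On the WT side, Fbxw7, the receptor that targets cyclin E and MYC, had 13 fragments (fold 4.94). The lowest pileup called was 6 in KO and 7 in WT, and with a q of 0.05 or lower 9 members were left in KO and not WT (6.21% of all genes) and 5 in WT and not KO (2.58%).

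In the comparison of shDdx5 with shControl, 28 members had a promoter peak in shDdx5 and not shControl (23.1%, beside 13.8% of all genes), 14 in shControl and not shDdx5 (11.6%, beside 5.16%) and 22 in both (18.2%, beside 10.2%). The 28 were 17 F-box and 11 Usp genes and the 14 were 10 F-box and 4 Usp genes. All 22 shared genes had peaks with bases in common. Fbxl13 was again strong among those found after knockdown and not before, with 28 fragments, a fold of 7.82 and a −log10 q of 14.3. Usp36, a nucleolar protease, and Fbxl6 had 21 fragments each (folds 4.13 and 4.11). Fbxw7 had 16 (fold 5.39). Fbxo5 had a peak in both lists, with 8 fragments in shControl (3.45 to 15.8) and 23 in shDdx5 (14.6 to 34.5), over backgrounds of 1.58 and 2.32. Fbxo4, an F-box gene with cyclin D1 among its known targets, had a promoter peak in shDdx5 and in no other MEF list, with 10 fragments, a fold of 3.57 and its summit 180 bp inside the gene in a coding exon. Fbxo2 and Fbxo44 share 1 shDdx5 peak of 16 fragments and were each counted for it. In shControl and not shDdx5, Usp12 had the tallest pileup of the Usp genes (11 fragments), and Fbxo7, an F-box gene linked to the PINK1 and parkin pathway, had 9.

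Promoter peaks in both KO and shDdx5 and in neither WT nor shControl were found at 7 members (5.79%, beside 3.08% of all genes): Fbxl13, Fbxo38, Fbxo39, Fbxo45, Fbxw4, Usp2 and Usp39. Only Fbxl13, Fbxo38 and Fbxo45 had peaks at the same place in both lists. Fbxo45 had 12 fragments in KO and 13 in shDdx5, with summits 196 and 198 bp inside the gene at the promoter it shares with Wdr53. Fbxo38 had 11 and 8 fragments with both summits 25 bp upstream. In Fbxo39, Fbxw4, Usp2 and Usp39 the peaks of the 2 lists did not share a base. The reverse pattern, WT and shControl but neither KO nor shDdx5, was found at Usp4 and Usp47 (1.65%, beside 0.384% of all genes), with 9 and 7 fragments for Usp4 and 8 and 10 for Usp47.

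In HEK293 cells the comparison of S9.6 with the library labelled RNH1 asks which S9.6 peaks are still called when RNase H1 is in excess. Here the families differed again: USP genes with a promoter peak numbered 22 of 45 in S9.6 (48.9%) and 23 with RNH1 (51.1%). F-box genes numbered 30 of 63 (47.6%) and 18 (28.6%). The share over all genes was also lower in the second list, 25.3% against 30.7% in S9.6. Among F-box genes, 12 had a peak in S9.6 and not with the RNH1 plasmid and 0 the reverse. Among USP genes 5 were in the first class and 6 in the second. Of all genes, 12.7% were in the first class and 7.32% in the second, so part of a fall is present at large. The F-box count was lower in the list labelled RNH1 under each of the 10 alternative settings, by 3 (7 against 4, without promoters shared with another gene) to 12, whereas for USP genes the sign of the difference turned under 4 of them. Over both families, 17 members had a peak in S9.6 and not with the RNH1 plasmid (15.7%, beside 12.7% of all genes), 35 in both (32.4%, beside 18%) and 6 in the latter alone of the pair (5.56%, beside 7.32%).

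Among the F-box genes of the 17, FBXO3 had 29 fragments in S9.6 (19.4 to 41.6, fold 5.32) and FBXW7 27 (fold 8.55, the highest fold of any member in S9.6). FBXO27 had 25, FBXL18 and FBXL8 21 each, FBXO28 20, FBXO4 19, FBXO9 and FBXO45 18 each, FBXO15 17 and FBXO36 14. The lowest pileup called anywhere in the list labelled RNH1 was 12 fragments. Of the USP genes of the 17, USP34 had 33 fragments, USP24 25, USP32 21, USP30, the protease of the mitochondrial outer membrane, 16, and USP3 13. FBXO3, FBXO15, FBXO36, FBXO45, FBXL8, FBXO9, USP30, USP32 and USP34 have the TSS of another gene in the window, among them TIMM21 at FBXO15, TRIP12 at FBXO36 and WDR53 at FBXO45. Found in the list labelled RNH1 and not in S9.6 were USP36 with 38 fragments, USP21, a protease of histone H2A, with 27, USP7, which acts on MDM2, with 22, USP44 with 21, USP14 with 14 and USP31 with 13.

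Of the 35 members in both lists, 30 had peaks that share bases, with summits a median of 148 bp apart. FBXO11, FBXW9, USP4, USP20 and USP39 had their peaks at different places in the 2 lists. USP5 was the strongest member in each, with 78 fragments in S9.6 (61.7 to 97.3, fold 7.28, −log10 q 38.2) and 85 in the list labelled RNH1 (67.9 to 105, fold 7.41, −log10 q 42.3). As in mouse, the TSS of CDCA3 lies within 1 kb. USP37 followed in S9.6 with 41 fragments and a fold of 7.78, and had 28 and 6.34 in the list labelled RNH1. FBXW11, a beta-TrCP protein, went the other way, with 27 fragments (fold 5.79) in S9.6 and 37 (fold 7.7) with the RNH1 plasmid. FBXO31, another F-box gene with cyclin D1 as a known target, had 38 (fold 4.98) and 45 (fold 6.19). FBXL5, the iron-sensing receptor for IRP2, had 32 and 28, and FBXL19, whose product binds CpG islands, 51 and 53. These pileups come from libraries of unlike depth, with lowest backgrounds of 2.28 and 2.48 fragments. Other genes also have a TSS within 1 kb of some of these peaks. They are CNOT9 at USP37 (S9.6), MAP1LC3B at FBXO31 and a gene without a name at FBXW11 (both in the list labelled RNH1).

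**Figure D4:**
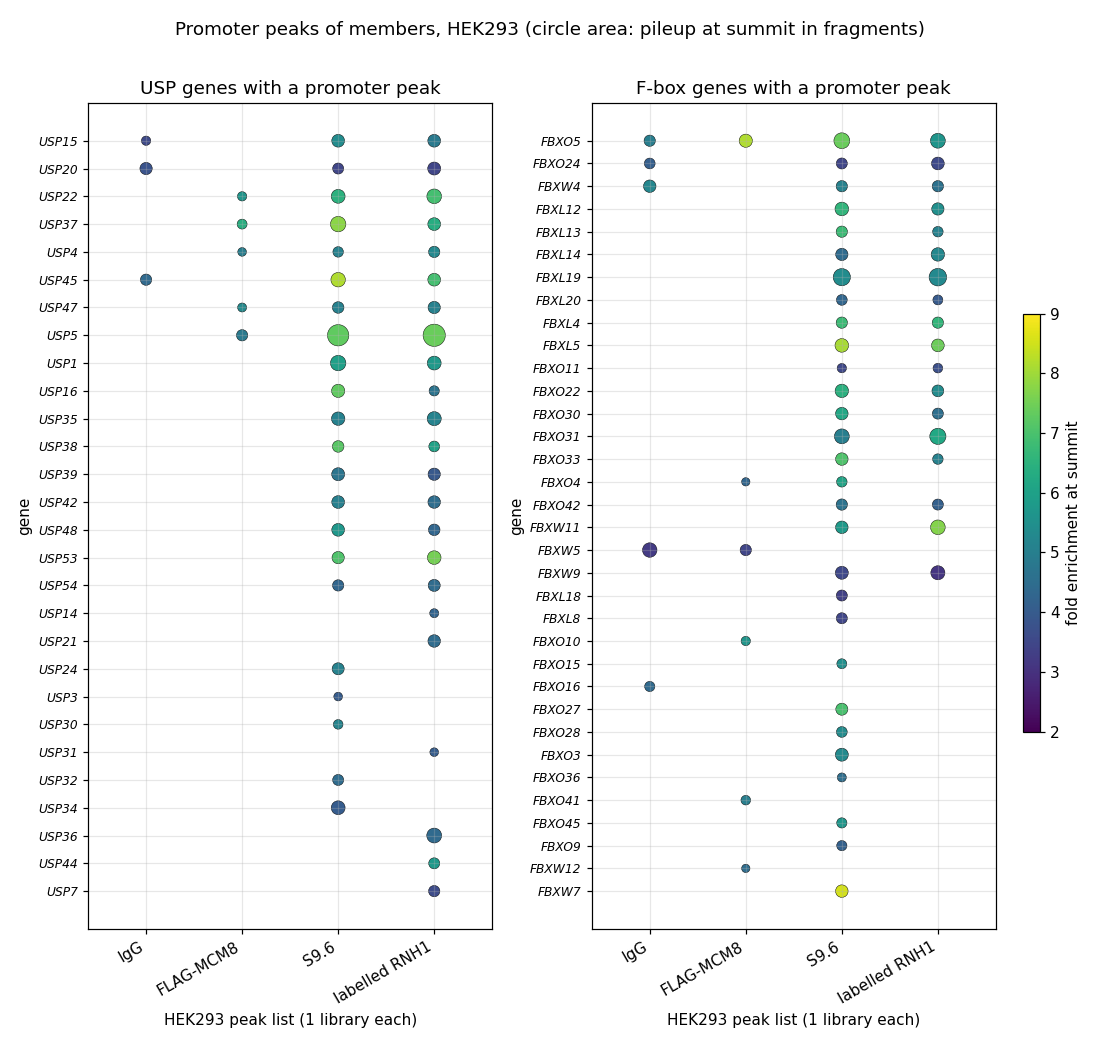
Promoter peaks of human members, with genes in rows and the 4 HEK293 lists in columns. Circle area is the pileup at the summit in fragments, on a scale of its own, and colour the fold enrichment over the local background. The plot leaves out 1 F-box gene with a peak in S9.6 alone, and FBXO5 is the only gene with a circle in all 4 columns.

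FLAG-MCM8 and S9.6 both marked the promoters of 7 members (6.48%, beside 7.59% of all genes): FBXO4, FBXO5, USP4, USP5, USP22, USP37 and USP47. FLAG-MCM8 without S9.6 marked FBXO10, FBXO41, FBXW5 and FBXW12 (3.7%, beside 4.69%). All 5 USP genes with a FLAG-MCM8 promoter peak were therefore also S9.6 genes, as were 2 of 6 F-box genes. Together these were 7 of 11 members, beside 1451 of 2348 over all genes with a FLAG-MCM8 promoter peak, a similar share. In 6 of the 7 the peaks shared bases, and in USP22 they lay at different promoters, with summits 38116 bp apart. The FLAG-MCM8 peak of USP37 (chr2:218568150-218568819) lay wholly within its S9.6 peak (chr2:218568140-218568819) and covered 98.5% of it, while the summits were 320 bp apart. Both peaks lie within 1 kb of a TSS of CNOT9. FBXO4 was the 1 gene of the 7 with no promoter peak in the list labelled RNH1. Its FLAG-MCM8 summit, with 12 fragments (6.2 to 21, fold 4.29), lay 123 bp upstream of a TSS and its S9.6 summit, with 19 fragments (fold 6.1), 82 bp upstream, so the windows printed for it overlap. FBXO5 had the strongest FLAG-MCM8 promoter peak of the members, with 30 fragments and a fold of 8.17, but IgG gave a peak of 22 fragments (fold 4.98) at the same place, and S9.6 and the library labelled RNH1 gave 43 and 38. USP5 and USP37 followed in FLAG-MCM8 with 22 and 17 fragments.

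IgG, which has no specific target, marked FBXO5, FBXO16, FBXO24, FBXW4, FBXW5, USP15, USP20 and USP45. Of these, 6 also had an S9.6 promoter peak (5.56%, beside 2.72% of all genes), but only FBXO5 and USP45 had it at the same place. FBXW4 was the strongest in IgG by −log10 q (9.69, 27 fragments, fold 5.25), and FBXW5 had the most fragments (36, over a background of 10.5). The S9.6 values of FBXO5 and USP45 (36 fragments, fold 8.17) thus stand on promoters with signal in the control.

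The genes marked in MEFs and in HEK293 cells overlapped in part. Of 105 symbols present in both species, 67 had an S9.6 promoter peak in at least 1 MEF list and 52 in HEK293 cells, and 38 had both, which is 56.7% of the mouse and 73.1% of the human genes. The first share stands against 49.5% of all 105 members marked in HEK293 S9.6. Over all 15158 symbols the shares were 49.9% and 64.8%, and there 49.9% stands against 33.6%, a wider gap than among members. Of the 9 mouse members in all 4 S9.6 lists, 8 were marked in HEK293 S9.6 (88.9%, beside 73% of all such genes), and USP14 was the exception. The 5 shared genes with the highest −log10 q in HEK293 cells were USP5, USP37, FBXO5, USP1 (16.8, 41 fragments) and FBXW7 (16.4). Of these only Usp5 and Usp37 were in all 4 S9.6 MEF lists. Fbxo5 was in 3, Fbxw7 in WT and shDdx5, and Usp1 in KO alone.

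The rule keeps peaks near a TSS, and within that limit the summits spread differently by list. Within 250 bp of a TSS lay 13 of 23 summits (WT), 23 of 32 (KO), 26 of 36 (shControl) and 33 of 50 (shDdx5) in MEFs. In HEK293 cells these were 3 of 8 (IgG), 6 of 11 (FLAG-MCM8), 42 of 52 (S9.6) and 33 of 41 (labelled RNH1). The strongest promoter peak of each member had a median fold of 3.92, 3.91, 4.09 and 4.09 in WT, KO, shControl and shDdx5, beside 3.75, 3.85, 3.68 and 3.88 over all promoter peaks, and of 5.38 in HEK293 S9.6 beside 4.62. Of the 52 human S9.6 members, 35 had the TSS of another gene in the window of the peak, as did 18 of the 50 in shDdx5.

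**Figure D5:**
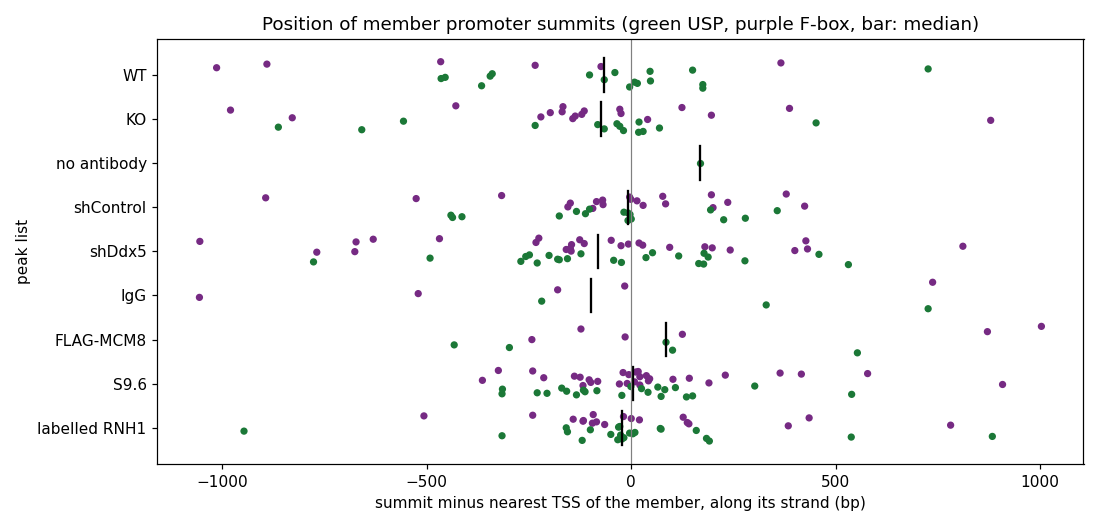
Distance in bp from the summit of each member's strongest promoter peak to its nearest TSS, along the gene's strand, for the 9 lists (green USP, purple F-box, black bar median, points spread vertically for legibility). Medians lie at -66 in WT, -74 in KO, -8 in shControl, -82 in shDdx5 and 3.5 in HEK293 S9.6, and the few FLAG-MCM8 summits have a median of 85.

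Median GC content at the 5' end of the gene record differed between marked and unmarked members in mouse and hardly in human. Composition was read in the 300 bases around that end, which need not be the TSS with the peak. For Usp37 this window had 48.3% GC, while the 61 bases at its KO summit, near another TSS, had 70.5%. Mouse members with an S9.6 promoter peak had a median GC content of 65.7% and 8.17 CpG for each 100 bases, and the 53 without had 51.7% and 4. The GC skew over 500 bases downstream, the excess of G over C on the coding strand, had a median of 0.0613 with and -0.00433 without a peak. The 53 include 14 of the genes Fbxw13 to Fbxw28, whose medians were 49.9% GC, 0.333 CpG and a skew of -0.219, and the other 39 had medians of 57.3%, 5.33 and 0.0252. Over all mouse genes the medians were 61% GC and 6.67 CpG with a peak and 51.7% and 2 without, so the same contrast was present at large. In human members the median GC content was 65.7% with and 65% without, and over all human genes 63.7% and 58.7%. The ETS motif CCGGAAG was found at 34.6% of the human members with a peak and 16.1% of those without, beside 15.7% and 10.2% over all genes, and in mouse at 23.5% and 22.6%. The GC box was at 75% of mouse members with a peak and 49.1% without (63.5% and 33% over all genes), and in human at 65.4% and 75% (64.5% and 47.4%). These are descriptions of letters in the window and were not tested.

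Inside the gene body, away from any TSS of the gene, the order of the lists was another one. Such a peak was present at 15 members (WT), 25 (KO), 29 (shControl) and 12 (shDdx5), beside 9.25%, 12.8%, 16.2% and 13.7% of all genes, and 6 with no antibody beside 6.85%. As shares of the 121 members these are 12.4%, 20.7%, 24%, 9.92% and 4.96%. The counts of WT and shControl, 15 and 29, lay further apart than those of WT and KO. In HEK293 cells IgG marked 26 (22.3% of all genes), FLAG-MCM8 21 (18.7%), S9.6 26 (19.8%) and the library labelled RNH1 25 (17.2%), so that S9.6 and IgG marked the same number of gene bodies, and members have longer genes than the median (29.4 kb against 17.6 kb in mouse, 50.8 kb against 27.9 kb in human).

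Other genes of the pathway were counted in the same way. For these lists the shares over all genes are again 11.8% in WT, 16.7% in KO, 15.3% in shControl, 24% in shDdx5, 30.7% in HEK293 S9.6 and 25.3% with the RNH1 plasmid. Of 21 genes for the SCF core and the NEDD8 cycle that activates it, 9 (42.9%, WT), 7 (33.3%, KO), 6 (28.6%, shControl) and 10 (47.6%, shDdx5) had a promoter peak, with Rbx1, the RING subunit, and Cops5, the catalytic subunit of the COP9 signalosome that removes NEDD8, in all 4. In HEK293 cells 12 (57.1%) had one in S9.6 and 11 (52.4%) with the RNH1 plasmid. FLAG-MCM8 marked 3 (14.3%, beside 12.3% of all genes), CAND1, CDC34 and CUL1, and IgG marked 1, CAND1 (4.76%, beside 5.64%). Both shares were close to those of all genes. Of 12 mouse family members with other kinds of symbol, 7 had a peak in each of WT, KO and shControl (58.3%) and 10 in shDdx5 (83.3%). Ccnf (cyclin F), Cyld, Fbh1, Kdm2a and Pan2 were in all 4. Their 11 human counterparts had 4 in S9.6 (36.4%) and 3 with the RNH1 plasmid (27.3%). Of 33 other deubiquitinases 4 (12.1%), 8 (24.2%), 12 (36.4%) and 11 (33.3%) had a peak in WT, KO, shControl and shDdx5, and 14 (42.4%) and 11 (33.3%) in HEK293 S9.6 and the list labelled RNH1. Of the known substrates and partners of members, 18 matched by symbol in mouse, with 8 (44.4%), 10 (55.6%), 5 (27.8%) and 10 (55.6%) marked in the same order, and 20 in human, with 12 (60%) in S9.6 and 11 (55%) with the RNH1 plasmid. FLAG-MCM8 marked 27.3% of the human family members with other symbols, 9.09% of the other deubiquitinases and 20% of the substrates and partners. The IgG shares were 9.09%, 3.03% and 10%. The no-antibody list held 0 of any of these groups. Ccna2, the gene of the USP37 target cyclin A, Pcna and Jun were marked in all 4 S9.6 MEF lists.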

How the data were processed

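Peak lists from 9 CUT&Tag libraries, 5 mouse and 4 human, were the starting point. The authors trimmed the reads and aligned them to mm10 (MEF) or hg38 (HEK293) with bowtie2 2.2.4, and called peaks in each library with MACS2, version 2.2.7.1 in the methods and 2.1.2 in the submitters' processing notes. The methods state that the no-antibody library was not an input in MEFs and name a fold over 2 with a p under 0.05 for HEK293 peaks, though folds in the deposited files go down to 1.79 (S9.6) and 1.72 (labelled RNH1). The MEF threshold and the treatment of duplicate reads are not given in the sources used here. For each peak the authors deposited a fold enrichment (a ratio to the local background), the −log10 of its p-value and q-value, a score that repeats the −log10 p-value and was not used, and the summit offset.

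Mitochondrial peaks (0 in MEF lists, 6 to 9 in HEK293 lists) were left out. Pileup and background were solved from fold and p (tolerance 0.01 in −log10 p), after a test on simulated data. Depth limits each value, and the intervals, Wilson for shares and exact Poisson for pileups, cover counting error only.

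Genes named were USP37 and FBXO4, the 3 members with the highest −log10 q in each list, members in all 4 S9.6 MEF lists, those in KO and shDdx5 only or WT and shControl only, those with FLAG-MCM8 and S9.6 or S9.6 but not labelled RNH1, those marked in controls, and shared symbols. Of these, 1 gene and 1 promoter sequence that the rule covers are not reported here. Others were chosen after their values were seen. Members, lists and this rule were chosen with earlier results of these data known. Libraries were grouped by their labels. Shares of members were set beside those of all autosomal protein-coding genes, under 10 alternative settings of the window, TSSs and peaks. Promoter sequences came from the mm10 and hg38 references. The scripts used Python 3.11.15 with scipy 1.17.1, numpy 2.4.6, matplotlib 3.10.9 and pandas 2.3.3.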

Additional observations from a re-analysis of the deposited data

Results flagged for a closer look

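USP genes with a promoter peak changed by -3 from WT to KO and by 7 from shControl to shDdx5, opposite directions under the 2 perturbations. The difference between these changes was not tested, and the first turned to an increase under 3 alternatives. Members with a peak inside the gene away from its TSSs changed by 10 from WT to KO and by -17 from shControl to shDdx5. This difference was not tested either. The share of all genes with such a peak went from 9.25% to 12.8% and from 16.2% to 13.7%. WT and shControl, with 15 and 29 such members, lay further apart than WT and KO.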

How the results depend on the processing

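Of 152 recomputed member counts, 108 stayed within 1.5 times the reported count and 44 did not. Brackets below hold the share of all genes under the same setting. With a q of 0.05 or lower the counts were 14 in WT (6.62%), 18 in KO (10.3%), 0 with no antibody (0.135%) and 23 in shControl (8.02%). They were 9 in KO and not WT (6.21%), 5 in WT and not KO (2.58%), and 9 in shControl and not shDdx5 (2.11%). With a fold of at least 4 the counts were 10 in WT (4.69%), 15 in KO (7.32%) and 0 with no antibody (0.332%). They were 20 in shControl (5.82%), 26 in shDdx5 (11.8%) and 5 in IgG (3.12%). For pairs of lists they were 7 in KO and not WT (4.69%) and 2 in WT and not KO (2.05%). There were 14 in shDdx5 and not shControl (8.16%), and 8 in shControl and not shDdx5 (2.19%). With the same number of strongest peaks from each list of a species (4314 in MEF lists) they were 21 in KO (11.3%) and 32 in shDdx5 (14.7%). They were 11 in KO and not WT (6.06%), and 18 in shDdx5 and not shControl (8.73%). Without the 44 mouse and 61 human members that have another gene's TSS in a promoter window, 77 mouse and 47 human members remained. Here the brackets hold the share of all genes so chosen. The mouse counts were 13 in WT (8.87%), 20 in KO (12.5%), 0 with no antibody (1.11%), 23 in shControl (11.4%) and 30 in shDdx5 (18.4%). As shares of the 77 members these are 16.9%, 26%, 0%, 29.9% and 39%. The human counts were 1 in IgG (4.94%), 15 in S9.6 (21.8%), 6 in FLAG-MCM8 (8.72%) and 13 in the list labelled RNH1 (17.4%). For pairs of lists there were 7 in WT and not KO, 15 in shDdx5 and not shControl, and 8 in shControl and not shDdx5. There were 4 in FLAG-MCM8 and S9.6, and 5 in S9.6 and not labelled RNH1. For these pairs the share of all genes so chosen was not computed, so the counts cannot be set against a background. A window of 3 kb gave 2 with no antibody (2.62% of all genes), 14 in IgG (11.4%), 17 in FLAG-MCM8 (16.9%) and 12 in FLAG-MCM8 and S9.6 (10.4%). A window of 500 bp gave 3 in IgG (3.49%). TSSs of protein-coding transcripts gave 6 in FLAG-MCM8 (10.1% of all genes), and 1 TSS per gene gave 4 in IgG (2.06%) and 6 in FLAG-MCM8 (7.75%). A mutual cover of at least 50% gave 4 in FLAG-MCM8 and S9.6, and no share of all genes was computed for it. Stricter peak criteria keep fewer peaks by construction.

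The settings applied to the family differences were added after the data were seen. The USP difference of KO from WT turned to 1 with a q of 0.05 or lower, 2 with a fold of at least 4 and 1 without shared promoters. That of the list labelled RNH1 from S9.6 turned to -1 at 500 bp, -2 at 3 kb, -1 with protein-coding TSSs and -1 with 1 TSS per gene. The F-box differences kept their direction in all 10 settings with the sizes given above, and that of the list labelled RNH1 from S9.6 ran from -12 to -3. The cause was not tested. No paired analysis was possible because each group held 1 library. Leaving out a replicate was not possible for the same reason. At 6 to 14 fragments for the weakest calls, a missing peak can be a signal just under the limit of its list.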
